A study of Rattus norvegicus with 3 samples.

Results

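Intermediate filaments are rope-like polymers of the cytoskeleton, and the genes that a cell uses to build them differ between cell types. The genes described here are the neuronal filament genes Nefl, Nefm, Nefh and Ina and the glial and progenitor filament genes Gfap, Vim and Nes. They were chosen by symbol: every probe set whose only gene symbol in the platform annotation is one of these 7 names was taken. This gave 9 of the 20826 probe sets that carry 1 symbol, and 7 of the 14217 genes that these represent. Nefl and Ina were each measured by 2 probe sets and the other 5 genes by 1 probe set each.

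The series held 3 arrays and 1 group. Each array carried amplified RNA from the soma, that is the cell body, of 1 pyramidal neuron drawn into a glass pipette. The source was untreated, dispersed cultures of Sprague-Dawley rat hippocampus, taken at embryonic day 19 and kept for 14 days in vitro. The somata are numbered cell 1, 2 and 3 as the labels number their replicates, and the labels give neither the animal nor the dish that a cell came from. No p-value was therefore computed, and an error given as SD is the spread over 3 cells. How the array values were made is described in the study's methods for pools of dendrites and for tissues, not for single somata.

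In a neuron, the light, medium and heavy neurofilament proteins (encoded by Nefl, Nefm and Nefh) and alpha-internexin (Ina) assemble together into neurofilaments, which fill the axon and set its calibre. Nefl and alpha-internexin form the core, while the long tails of the medium and heavy chains project from it and are heavily phosphorylated in axons. Alpha-internexin appears early in development, and the heavy chain is the last to accumulate as neurons mature. Gfap, the glial fibrillary acidic protein, is the filament of astrocytes. Vim (vimentin) builds filaments in astrocytes, fibroblasts, endothelium and microglia, and Nes (nestin) is the filament of neural progenitors, where it assembles with vimentin.

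The neuronal filament genes had a higher median reading than the glial and progenitor filament genes in each of the 3 somata. Levels are given as the percentile of a probe set among the 31042 probe sets of its array that are no manufacturer controls, with the median taken for a gene with 2 probe sets. The median percentile of the 4 neuronal genes was 79.9 in cell 1, 80.1 in cell 2 and 90.4 in cell 3, or 83.5 ± 6.03 (SD, n = 3 cells). The median of the 3 glial and progenitor genes was 52.8, 47.3 and 50.5 in the same cells, or 50.2 ± 2.79. All genes on the array had medians of 50.7, 51.5 and 51.9, so the glial and progenitor filaments sat near the middle of each array and the neuronal filaments well above it.

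Within each cell the neuronal median exceeded the glial and progenitor median by 27.0, 32.8 and 39.9 percentile points in cells 1, 2 and 3, a mean difference of 33.2 ± 6.45 (SD, n = 3 cells). This difference was larger than its spread between cells. On the log2 intensity scale as deposited, the same difference of medians was 1.63, 1.63 and 2.76, or 2.01 ± 0.65. These log2 differences are between readings that mostly lay below background, the level set by genes taken as silent in neurons. This held on both sides in cells 1 and 2 and on the glial and progenitor side in cell 3. The log2 differences are therefore differences of signal and not measured ratios of RNA. Of the 12 pairs formed by a neuronal and a glial or progenitor gene, the neuronal gene read higher in 12, 11 and 12 pairs in cells 1, 2 and 3. The exception was Nefl in cell 2, at a percentile of 50.9 against 67.7 for Gfap. Of the 18 pairs of probe sets, the neuronal one read higher in 18, 15 and 17 pairs, and every exception was the Nefl probe set 1370059_at, which lay below Gfap, Vim and Nes in cell 2 and below Nes in cell 3. Probes differ in how strongly they bind, and that binding enters a percentile together with the RNA, so these values describe where the probe sets stood on the array and do not rank transcripts by abundance. With 1 array per soma and 3 somata, the number of arrays limits the precision.

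**Figure D1:**
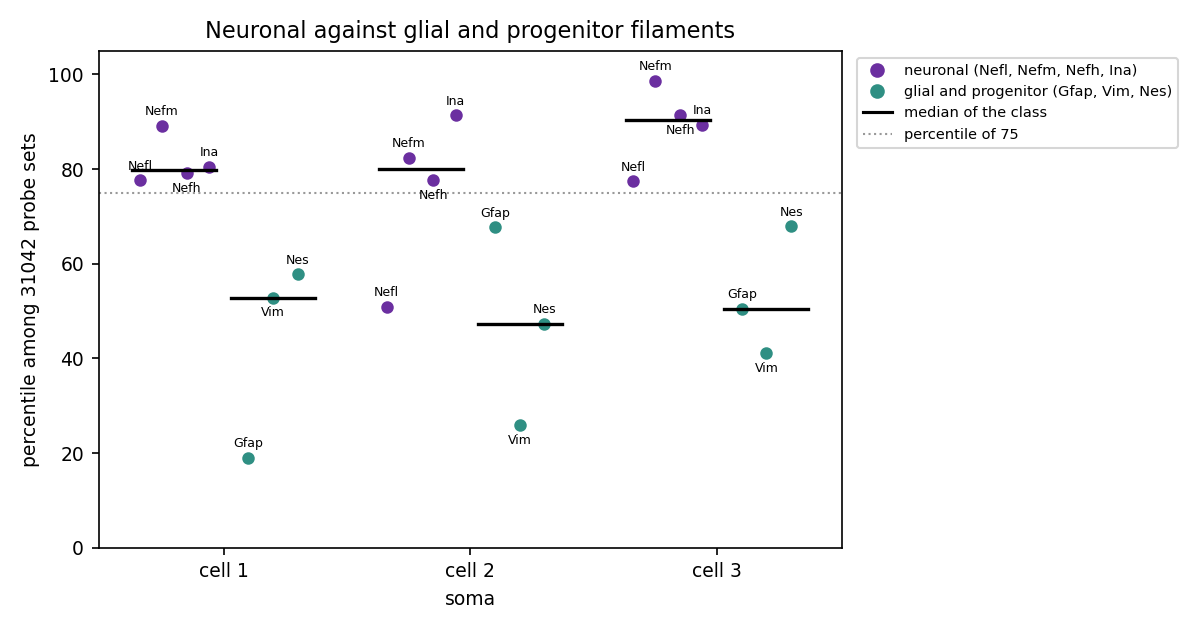
Percentile of each filament gene among 31042 probe sets (vertical axis) in cells 1, 2 and 3 (horizontal axis), with 1 point per gene, neuronal genes in purple, glial and progenitor genes in green, a black bar at the median of each class and a dotted line at a percentile of 75. The neuronal medians are 79.9, 80.1 and 90.4 and the glial and progenitor medians 52.8, 47.3 and 50.5, and the classes overlap in cell 2, where Nefl lies below Gfap.

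A gene was placed in the upper part of an array where its percentile was 75 or more. In all 3 cells this held for 986 of the 14217 genes (6.94%), and for 3 of the 7 filament genes, namely Nefm, Nefh and Ina. Per cell it held for 21.3%, 22.1% and 23% of all genes in cells 1, 2 and 3. All 4 neuronal filament genes passed in cells 1 and 3, and all but Nefl in cell 2. None of Gfap, Vim and Nes passed in any cell.

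A stricter limit was set by genes taken as silent in neurons, namely odorant, vomeronasal and taste receptors and genes of liver, pancreas, lens, testis, blood and other organs. Their silence in these neurons was not checked, and any expressed gene among them could raise the limit. The 95th percentile of the 148 probe sets of these 128 silent genes was taken as background, which lay at 9.78, 10.17 and 9.43 log2 in cells 1, 2 and 3. Of all genes, 6.67%, 4.95% and 10.8% lay above it in cells 1, 2 and 3, and among them 6, 7 and 7 silent genes. No filament gene was above background in cell 1 or cell 2. In cell 3 the 4 neuronal filament genes were above it and the 3 glial and progenitor genes were not. Cell 3 had both the lowest background and the highest neuronal class median, although Ina had its highest percentile in cell 2. Nefl had nearly the same percentile in cells 1 and 3 (77.7 and 77.4), with 8.52 and 9.54 log2. Across all 3 cells 1.85% of the genes and none of the 7 filament genes were above background. Background lay at percentiles of 91.6, 93.2 and 87.8 in cells 1, 2 and 3, higher than the limit of the upper part. In cells 1, 2 and 3 the upper part held 5, 4 and 5 of the 28 silent receptors. It also held 16, 23 and 16 of the 100 silent genes of other organs. In all 3 cells it held 1 of these receptors and 3 of these other genes. A place in the upper part of a single array therefore does not set a gene apart from silent genes.

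Nefm, the medium neurofilament chain, had the highest mean percentile of the neuronal genes by the gene median, a rank that Ina took with the brightest probe set per gene (94.9 against 90.1) and with percentiles among genes (91.8 against 91.5). Its probe set read 9.46 log2 in cell 1, 8.85 in cell 2 and 11.72 in cell 3, which are percentiles of 89.2, 82.4 and 98.6. Cell 3 stood above the others by more than 2 log2, and the 3 cells averaged a percentile of 90.1 ± 8.14 (SD, n = 3 cells).

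Nefl, the light chain on which neurofilament assembly depends, gave 2 different pictures. Its probe set 1370058_at, which the platform annotation lists under the RefSeq transcript, read 8.80, 9.51 and 11.73 log2 in cells 1, 2 and 3, at percentiles of 82.1, 88.9 and 98.7. The other, 1370059_at, listed under a different sequence record, read 8.25, 5.36 and 7.35 log2, at percentiles of 73.3, 12.9 and 56.1. The first was in the upper part of every array, and the second in none. Their median percentile, taken as the value of the gene, was 77.7, 50.9 and 77.4, or 68.7 ± 15.4 (SD, n = 3 cells). The gap between these probe sets averaged 42.5 percentile points over the cells, against a median of 29.8 for the 3061 genes with exactly 2 probe sets. It was 76.0 points in cell 2, so the low value of Nefl there came from 1 of its 2 probe sets. No source used here says where along the transcript each probe set lies.

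Nefh, the heavy chain of mature axons, read 8.60, 8.50 and 9.99 log2 in cells 1, 2 and 3. Its percentiles were 79.2, 77.7 and 91.4, or 82.8 ± 7.52 (SD, n = 3 cells). Cells 1 and 2 were close to each other, and cell 3 stood above both.

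Ina, the filament protein of young neurons, read high in every cell. Its probe set 1387226_at read 10.84, 10.41 and 9.14 log2, at percentiles of 96.9, 94.5 and 85.4, and it was the only one of the 9 filament probe sets above background in cells 1 and 2. Its probe set 1371148_s_at, which can match more than 1 transcript, read 7.81, 9.42 and 10.36 log2, at percentiles of 64.1, 88.2 and 93.4. The probe sets ordered the cells in opposite ways, with cell 1 highest on one and lowest on the other. Their mean gap of 15.7 points was smaller than that of most genes with 2 probe sets. The gene value was 80.5, 91.4 and 89.4, or 87.1 ± 5.78 (SD, n = 3 cells), the smallest spread of the 7 genes. That spread comes from taking together 2 probe sets that move in opposite ways. By themselves they had SDs of 15.6 (1371148_s_at) and 6.06 (1387226_at) percentile points.

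**Figure D2:**
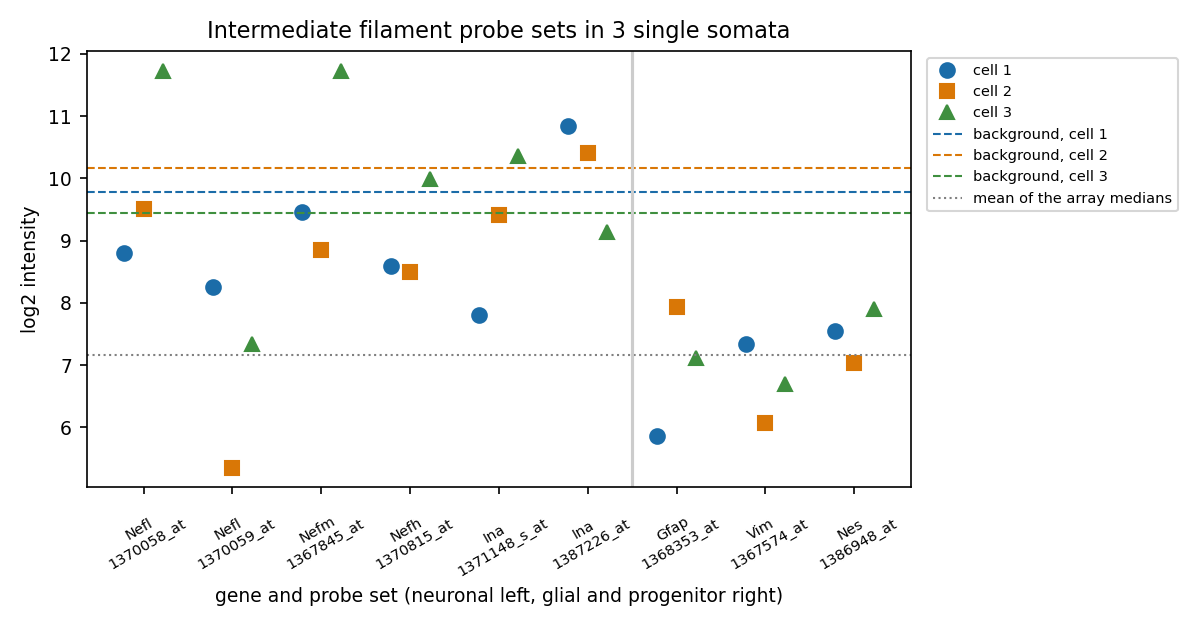
Log2 intensity (vertical axis) of the 9 filament probe sets (horizontal axis) drawn as circles, squares and triangles for cells 1, 2 and 3, the background of each cell as a dashed line of the same colour and the mean of the array medians as a dotted line. Neuronal probe sets are left of the vertical line; in cell 3 the probe sets 1370058_at of Nefl and 1367845_at of Nefm read 11.73 and 11.72, while every glial and progenitor reading lies below 8.

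Gfap, the astrocyte filament, read 5.86 log2 in cell 1, 7.93 in cell 2 and 7.11 in cell 3. Its percentiles were 19.1, 67.7 and 50.5, or 45.8 ± 24.7 (SD, n = 3 cells), the widest spread of the 7 genes. Cell 2 was highest and cell 1 lowest, and relative to background the readings stood at -3.92, -2.24 and -2.33 log2. The list of other astrocyte markers had medians of 38.4, 42.1 and 35.0 in cells 1, 2 and 3, which lay a few points apart. Of its 15 measured genes, 5, 1 and 2 lay at a percentile of 75 or more, against 21.3%, 22.1% and 23% of all genes. S100b alone was above background, in cell 1, where 6.67% of all genes were. Among the astrocyte markers the water channel Aqp4 lay at 77.8, 12.9 and 7.15 and the enzyme Aldh1l1 at 4.30, 35.2 and 15.6. By gene values, Aqp4 was thus higher in cell 1 than in cell 2 and Aldh1l1 was lower. The 3 probe sets of Aqp4 disagreed. In cells 1 and 2, 1368981_at lay at 85.7 and 46.7, 1387397_at at 77.8 and 12.9, and 1372190_at at 0.005 and 1.73. The part of astrocyte RNA in the reading of Gfap was not tested.

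Vim read 7.33, 6.07 and 6.70 log2 in cells 1, 2 and 3, at percentiles of 52.8, 25.9 and 41.2, or 40.0 ± 13.5 (SD, n = 3 cells). It had the lowest mean of the 7 genes, and in no cell was it the highest of its class. Its values also show how coarse the deposited scale is, since 40, 152 and 189 other probe sets had exactly the same value as Vim on the arrays of cells 1, 2 and 3. Nes read 7.54, 7.04 and 7.91 log2, at percentiles of 57.9, 47.3 and 68.0, or 57.7 ± 10.3. Of the glial and progenitor genes, Nes had the highest mean and the smallest spread.

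Ordered by mean percentile, the genes ran Nefm, Ina, Nefh, Nefl, Nes, Gfap and Vim, with the neuronal genes first. No neighbours in this order were separated by more than the larger of their SDs. Nefl and Nes, which meet where the classes meet, differed by 11.0 points with an SD of 15.4 for Nefl, although Nefl read higher than Nes in each of the 3 cells. Nefh also read higher than Nefl in each of the 3 cells, and the first of every other neighbouring pair in 2. This SD does not pair the 2 genes within a cell, whereas the class difference was taken within each cell. The 2 measures are therefore not alike, and whether neighbouring genes stand apart within cells was not tested.

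Differences of 1 probe set between cells leave out probe affinity. After quantile normalisation, which gives every array the same distribution, 6 neuronal and 3 glial and progenitor probe sets gave 27 such differences, of which 24 lay within the central 90% of all probe sets. The 3 outside were all higher in cell 3. The Nefl probe set 1370058_at was 2.77 log2 higher in cell 3 than in cell 1 and 2.07 higher than in cell 2, and Nefm was 2.73 higher in cell 3 than in cell 2. Upper limits of the central 90% were 2.59 for cell 3 minus cell 1 and 2.05 for cell 3 minus cell 2. Each of these is a difference between single cells, with no replicate on either side and no test. The lower reading was below background in each of the 3, so the size of the difference in RNA is not known from it.

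For Nefh, Ina and the glial and progenitor genes every difference lay within the central 90%. Nefh was 1.28 log2 higher in cell 3 than in cell 1 and 1.38 higher than in cell 2. The Ina probe set 1371148_s_at was 2.46 higher in cell 3 than in cell 1, whereas 1387226_at differed by -1.86. Gfap differed by 2.20 from cell 1 to cell 2 and by -0.76 from cell 2 to cell 3, while Vim differed by -1.18 and 0.70 and Nes by -0.44 and 0.91 over the same steps. The median of all probe sets moved by 0.13, 0.25 and 0.06 between cells 1 and 2, 1 and 3, and 2 and 3. All neuronal probe sets but the Ina probe set 1387226_at were higher in cell 3 than in cell 2, and so were Vim and Nes but not Gfap.

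**Figure D3:**
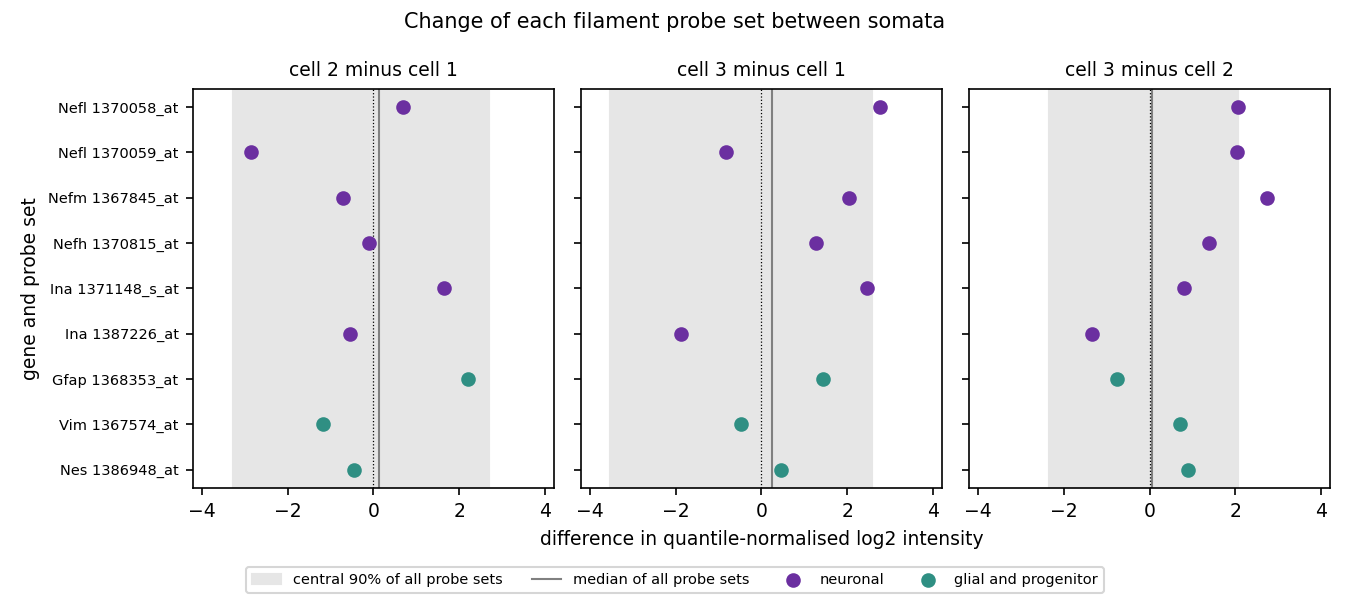
Difference in quantile-normalised log2 intensity (horizontal axis) of each filament probe set (vertical axis) between pairs of somata, with neuronal probe sets in purple, glial and progenitor ones in green, the central 90% of all probe sets as a grey band and their median as a grey line. Nefl 1370058_at lies right of the band in both panels with cell 3, and Nefm in the panel of cell 3 minus cell 2.

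The arrays themselves differed, which touches every comparison between cells. Array medians were 7.23, 7.15 and 7.09 log2. Control probe sets for Gapdh, taken as 3' minus 5' signal, gave 0.20, 3.06 and 2.93 log2, so cell 1 stood apart from the other two. Cells 2 and 3 were the most alike over the 14217 genes, with a Pearson's r of 0.676 (across genes, which are not independent replicates), while cell 1 had an r of 0.474 with cell 2 and of 0.439 with cell 3. The part of amplification in the filament readings was not tested.

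As a set, other intermediate filament genes read lower than the neuronal class, although the keratins Krt71 and Krt90 read as high. The 36 further filament genes measured had median percentiles of 51.8, 35.9 and 49.5 in cells 1, 2 and 3. Of these 36 genes, 1, 1 and 2 were above background, against 6.67%, 4.95% and 10.8% of all genes. Of the 4 neuronal filament genes, 0, 0 and 4 were above it, so background did not set the class apart in cells 1 and 2. In all 3 cells, 1 of the 36 lay at a percentile of 75 or more (2.78%, against 6.94% of all genes). The type III and IV relatives lay near or below the middle of the arrays by their gene medians. Synm, which joins filaments to muscle attachment sites, lay at 39.6, 47.6 and 51.0, although its probe set 1372658_at read 29.3, 79.7 and 87.5. Des (desmin of muscle) lay at 42.7, 9.30 and 47.9. Prph (peripherin of peripheral neurons) lay at 9.60, 38.2 and 21.0, and Sync at 14.4, 27.0 and 20.1. By gene medians Prph, the neurofilament partner of the peripheral nervous system, thus read below all 4 neuronal genes in each cell. The Nefl probe set 1370059_at alone lay below Prph in cell 2, at 12.9. The lamins of the nuclear envelope lay in the middle, with Lmnb1 at 59.8, 27.6 and 65.6, Lmna at 55.7, 33.0 and 72.5 and Lmnb2 at 78.9, 42.8 and 54.6. One of the 3 probe sets of Lmnb1, 1373897_at, nevertheless lay at 98.1, 99.4 and 99.2.

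Keratins, the filaments of epithelia, had medians of 58.6, 40.1 and 44.3 over 25 genes. Krt71 (73.8, 96.3 and 96.0) and Krt90 (94.2, 91.4 and 93.2) led them, and Krt10 (82.1, 20.2 and 3.90) and Krt20 (15.8, 51.1 and 14.2) came last. Krt90 was above background in cells 1 and 3 and Krt71, a keratin of the hair follicle, in cells 2 and 3, and Krt90 read higher than Nefm in cells 1 and 2. The lens filaments Bfsp1 and Bfsp2 and the orphan genes Iffo1 and Iffo2 had medians of 50.6, 30.4 and 41.7, with none above background.

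Genes that attach, modify, move or remove filaments were mixed. Linkers had medians of 78.7, 63.8 and 64.5 over 7 genes, led by Macf1, which joins actin and microtubules, at 97.3, 99.8 and 99.8, above background in every cell. Plec (plectin, which ties filaments to other structures) lay at 36.0, 77.5 and 33.6. The kinases and phosphatases that act on neurofilament tails had medians of 53.4, 56.6 and 56.6 over 9 genes, none of them above background. Cdk5, a tail kinase of neurons, lay at 77.3, 86.3 and 33.6, and its activators Cdk5r1 and Cdk5r2 closed the list at 51.0, 37.4 and 37.1 and at 38.4, 55.2 and 22.4.

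Motors of slow filament transport had medians of 68.0, 32.2 and 64.8 over 7 genes. By gene medians, Kif5c was above background in cell 1, none in cell 2, and Dctn1 and Myo5a in cell 3. The 3 probe sets of Kif5c disagreed, with 1380172_at at 60.6, 86.1 and 96.9. Its probe set 1395997_at lay at 95.3, 11.7 and 33.6, and 1396154_at at 93.1, 4.30 and 3.18. Kif5a, the neuronal kinesin that carries neurofilaments, lay at 84.0, 87.4 and 87.6, and Dctn1, a subunit of dynactin, at 70.5, 90.5 and 94.7. Dync1h1, the dynein heavy chain, lay at 27.0, 30.9 and 51.5 and Kif5b at 22.2, 32.0 and 61.1. Among genes of filament turnover (medians of 35.3, 76.2 and 60.6 over 5 genes), the ubiquitin ligase Trim2, which acts on the light chain, lay at 61.9, 76.2 and 89.1. Proteins that bind the Nefl messenger had medians of 49.9, 56.3 and 68.5, with Tardbp (TDP-43) at 37.4, 44.7 and 68.5 and Matr3 at 92.5, 74.1 and 65.3. Over all 67 genes of these lists, 5, 2 and 6 were above background, against 6.67%, 4.95% and 10.8% of all genes, and 3 lay at 75 or more in every cell (4.48%, against 6.94% of all genes).

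Marker lists were read to check the label of the cells. General neuronal markers had medians of 83.2, 83.3 and 77.0 over 15 genes, with 4, 2 and 7 above background (6.67%, 4.95% and 10.8% of all genes), against medians of 79.9, 80.1 and 90.4 for the neuronal filaments. They were led by Mapt, the axonal protein tau, at 96.7, 98.8 and 99.2, and closed by Uchl1 at 14.4, 16.4 and 29.0. Pyramidal markers had medians of 52.4, 43.2 and 69.6 over 10 genes, led by Neurod2 (99.8, 99.9 and 99.9) and Nrgn (93.4, 99.0 and 98.3), while Neurod1 (21.9, 22.6 and 85.7), low in cells 1 and 2, and Tbr1 (3.39, 19.7 and 29.0) closed the list. Above background were 2, 2 and 4 of the 10 genes, against 6.67%, 4.95% and 10.8% of all genes.

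Markers of cells that use Gfap, Vim or Nes had lower medians than the general neuronal markers in each cell, but not lower than the pyramidal markers throughout. Neural progenitor markers had medians of 54.2, 48.2 and 50.1 over 11 genes, near those of all genes, with Nes itself at 57.9, 47.3 and 68.0. Their ends were Pax6 (92.0, 68.7 and 84.9) and Sox2 (63.7, 57.5 and 73.8), the highest, and Eomes (40.3, 24.7 and 27.0) and Top2a (53.6, 7.77 and 21.3), the lowest. Astrocyte markers were led by the glutamate transporter Slc1a3 (75.1, 75.9 and 84.4) and Cd44 (76.1, 53.9 and 70.6) and closed by Gjb6 (0.62, 4.30 and 3.90). Vascular and fibroblast markers had medians of 55.9, 51.4 and 33.6 over 11 genes, with none above background, Col1a1 (40.6, 69.5 and 81.0) first and Lum (21.3, 8.90 and 0.42) last. Microglial markers had medians of 74.5, 49.4 and 31.1 over 10 genes. Above background were 4 of them in cell 1, namely Csf1r, C1qc, Itgam and Tyrobp, and none in cells 2 and 3, against 6.67%, 4.95% and 10.8% of all genes. Csf1r led the list at 96.1, 54.7 and 75.1, and Tyrobp closed it at 99.0, 14.3 and 4.96. The list did not move as one, since Cx3cr1 lay at 21.5, 68.0 and 75.5 and Aif1 at 5.72, 41.1 and 36.5, both lowest in cell 1. Vim was also highest in cell 1, and the part of microglial RNA in its reading was not tested. Interneuron and oligodendrocyte lists had medians of 57.2, 69.7 and 40.6 and of 51.7, 64.3 and 56.6. Interneuron medians lay above the pyramidal medians of 52.4 and 43.2 in cells 1 and 2, and below that of 69.6 in cell 3. The list medians thus did not set the pyramidal label apart from interneurons in cells 1 and 2. Of 9 interneuron genes, Calb2 was above background in cells 1 and 3 and Vip (62.0, 95.7 and 47.9) in cell 2, against 6.67%, 4.95% and 10.8% of all genes. Their first and last genes were Calb2 (97.7, 89.0 and 98.7) and Gad2 (18.3, 1.17 and 11.4) for interneurons and Sox10 (24.4, 92.9 and 76.5) and Cspg4 (7.37, 21.2 and 30.3) for oligodendrocytes.

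**Figure D4:**
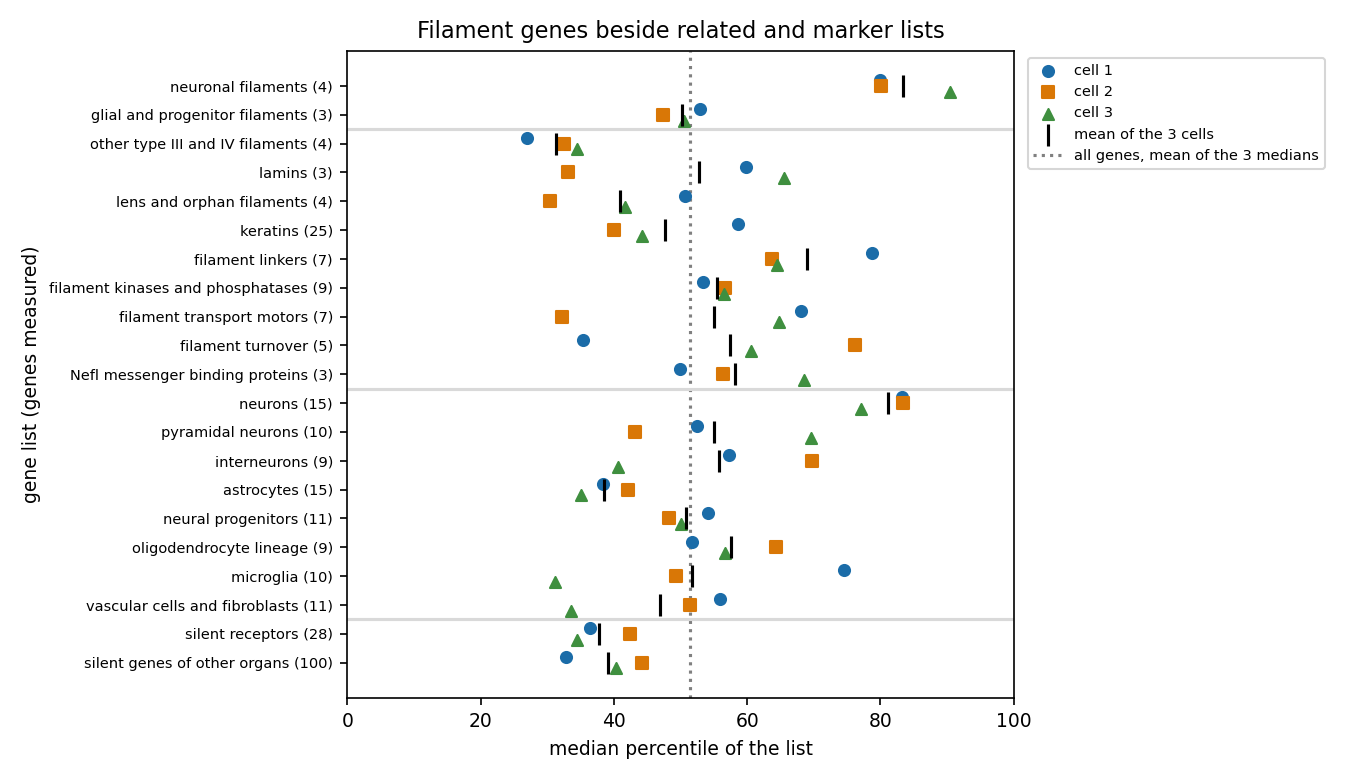
Median percentile (horizontal axis) of the filament classes, related lists, marker lists and silent genes (vertical axis, number of genes measured in brackets) with circles, squares and triangles for cells 1, 2 and 3, a vertical bar at their mean and that of all genes as a dotted line. The neuronal filaments (mean 83.5) and the general neuronal markers (mean 81.2) stand furthest right, and the glial and progenitor filaments (mean 50.2) lie near the line.

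Genes with a pattern close to that of a filament gene were found by the sum, over the 3 cells, of the absolute difference in percentile. The nearest to Ina was Nup210, with a summed difference of 0.71 points, followed by Rab7b with 3.04. Nefm was nearest to Higd2a (3.07) and Rnf208 (3.93), Nefh to N5 (2.47) and Rnf220 (2.73), and Nefl to Nars1 (3.09) and Snrpd1 (5.62). Among the glial and progenitor genes, Vim was nearest to Mks1 (1.77) and then Paip1, Nes to Tmco3 (1.56) and Bpgm (1.83), and Gfap to Fam178b (5.57) and Cd74 (6.17). No filament gene was among the 2 nearest of another, and 3 cells are few points for such a likeness.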

How the data were processed

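The authors deposited 1 log2 value per probe set of an Affymetrix rat expression array, made per the labels with RMA 2.0. The study's methods describe an upper-decile summary with median centring and scaling for dendrite and tissue arrays. The deposited log2 values were not centred on 0, and no source used here says which arrays were summarised together. Tied values received their mean rank.

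The 57 manufacturer control probe sets were left out, and the other 31042 were ranked within each array. Platform annotation gave 1 symbol to 20826 of them, several to 436 and none to 9780; gene numbers of 20758 were found in the RefSeq table. A gene with several single-symbol probe sets was given their median. Percentiles, classes, 17 lists and quantile normalisation were computed with Python 3.11.15, pandas 2.3.3 and numpy 2.4.6, and the ranking was tested on simulated data. No test was run. Members, lists and limits were chosen with earlier results of these data known. Named genes were all members, short lists or the ends of longer lists by median percentile, and the 2 nearest genes of each member. Aldh1l1, S100b, C1qc, Itgam, Cx3cr1, Aif1, Vip, Kif5c, Myo5a and the single probe sets of Lmnb1, Synm, Aqp4 and Kif5c were named outside this rule, after their values were seen. Alternatives were other probe-set choices, ranks, limits and each cell left out. Protein and neurofilament promoter sequences were not used here.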

Additional observations from a re-analysis of the deposited data

How the results depend on the processing

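The difference between neuronal and glial and progenitor filaments was above 0 in each of the 3 cells under every alternative run. Its mean was 33.2 percentile points, lay between 31.4 and 38.9 under the other choices of probe sets, ranks and averages, and between 29.9 and 36.3 with each cell left out in turn. Without Nes, which had the highest mean percentile of its class, it was 40.6 points, and no other member was left out. On quantile-normalised log2 values it was 1.97 log2. The count of filament genes at a percentile of 75 or more in every cell was 3. It was 3 without probe sets ending in _s_at, _x_at or _a_at, and 0 at a percentile of 90. It was between 3 and 4 with each cell left out in turn, and 4 when each gene took its brightest probe set. These last 2 choices could not lower the count, and the limit of 90 could not raise it. The count above background also depended on the choice, and a count of 0 could only rise. In cell 1 it was 0 as reported, 1 when each gene took its brightest probe set, 1 without probe sets ending in _s_at, _x_at or _a_at, 2 against the 90th percentile of the silent probe sets, and 1 against the silent receptors alone. In cell 2 it was 0 as reported and 1, 1, 1 and 2 under the same alternatives. In every cell together it was 0 as reported, 1 with the brightest probe set, 1 against the 90th percentile and 1 against the receptors. With each cell left out in turn it was 0, which was fixed in advance, since any 2 cells include cell 1 or cell 2. In cell 3 it was 3 or 4 throughout. The cause was not tested. Of 35 recomputed mean percentiles of single genes, 33 stayed within 1 SD, but most of these could not have left it. Leaving out 1 of 3 cells cannot shift a mean by 1 SD, and the brightest probe set changes nothing for a gene with 1 probe set. With the brightest probe set both genes that have 2 probe sets moved, Nefl from 68.7 to 89.9 and Ina from 87.1 to 94.9. No comparison between groups, paired or not, could be made with 1 group; the difference within each cell is given without a test. No detection calls were used, so signal over background is known only from the silent genes.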
